A study of Apis mellifera with 36 samples.

Results

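The 5 genes described here are honeybee relatives of fly genes that act in dosage compensation and in sex-specific splicing. They were taken by their names and identifiers in the deposited annotation: mle (gene5177), msl-3 (gene7270), Snf (gene11124), tra2 (gene8845) and LOC725679 (gene6666), which the annotation calls a sex-lethal homolog. These 5 are among the 12365 genes in the tables, and all 5 passed the filter on low counts that left 9575 genes for testing.

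RNA of single whole embryos of the honeybee, Apis mellifera, was sequenced in 36 libraries. Female embryos came from worker comb and male embryos from drone comb, each collected 24, 48 or 72 h after egg laying, with 3 embryos for each sex and time from each of 2 queens. Bees are haplodiploid, so the females are diploid and the males haploid, and the labels assign sex by the kind of comb. No embryo carried a transgene or received a treatment. The 2 queens were also the 2 batches of collection, so a difference between queens and one between batches cannot be told apart. Nothing states whether embryos of 1 queen came from 1 laying bout, so p-values measure the spread between these embryos. The laying window is 2 h in the labels, and the methods state a longer one.

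In Drosophila, dosage compensation raises transcription from the single X chromosome of males. The MSL complex does this, and it contains the RNA helicase Mle, the chromodomain protein Msl3, the acetyltransferase Mof and Msl2, which holds the complex together. The RNA-binding protein Sxl is made in female flies, where it blocks Msl2 production and directs the splicing of its own RNA and that of transformer. Tra2 then acts with the transformer protein on the splicing of doublesex. Snf of the fly is a protein of the U1 and U2 snRNPs, the particles that mark the ends of introns, and it is needed for Sxl to control its own splicing. Honeybees have no sex chromosomes, and sex is set by the gene Csd, which acts through Fem, the transformer relative of the bee.

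In the Amel_4.5 annotation deposited with the data, mle lies on the plus strand of linkage group 6 from 8852378 to 8857621, with 10 merged exons that cover 4544 bases. The gene msl-3 lies on the plus strand of linkage group 9 from 5145116 to 5148209, with 10 merged exons that cover 2201 bases. Snf is the shortest, on the minus strand of linkage group 15 from 2606472 to 2607740, with 3 exons of 1050 bases and a single mRNA model. The gene tra2 lies on the plus strand of linkage group 11 from 8692825 to 8698291 and has 13 mRNA models with 2 start sites and 4 ends over 5 merged exons of 2289 bases. LOC725679 lies on the plus strand of linkage group 8 from 6628794 to 6646187, with 5 mRNA models and 9 merged exons of 2858 bases. Snf and LOC725679 each overlap 1 gene on the opposite strand, with 0 exon bases shared. The values below sum all transcripts of a gene, and splicing, which is how Sxl and Tra2 act in the fly, was not measured by them.

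The deposited counts summed to between 7122090 and 12808580 per embryo at 24 h in both sexes. At 48 h the sums ran from 5503556 to 7944906 in females and from 3222023 to 7572141 in males. At 72 h they ran from 5600680 to 7345814 in females but only from 1195774 to 2008560 in males. Of the total that the deposited RPKM were scaled by, the listed genes held 66.1% ± 3.07 (SD, n = 6) in females at 72 h. The share in males of that time was 25.96% ± 4.82 (SD, n = 6). Marker genes also differed between the sexes after 24 h. The summed level of 6 zygotic patterning genes was 1217 to 1546 CPM in 48 h females and 83.7 to 408 in 48 h males, with 5 of the 6 called higher in females at 48 h, and 4 higher and 1 lower at 72 h. At 72 h the sums overlapped, at 612 to 798 CPM in females and 399 to 682 in males. The gene eve ran against the rest there, at 4.99 to 63.3 CPM in females and 350 to 467 in males. Each of the other genes of this list had a higher median in females at 72 h. At 24 h the sums were 113.5 to 171 CPM in females and 195 to 281 in males, with 0 called. Of these, eve held 105.6 to 158.8 CPM in females and 185 to 264 in males. The summed level of 4 germline and maternal genes was 112.8 to 151 CPM in 72 h females and 1102 to 1541 in 72 h males, and 2 of the 3 that could be tested were called lower in females at both times. The neural marker gene repo was called lower in females at 72 h, with medians of 0.52 CPM in females and 28.6 in males. In whole embryos, fewer cells of a type and less RNA per cell cannot be told apart, and the part of depth, embryo stage and retained maternal RNA in the sex differences below was not tested.

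Levels are given as CPM, counts relative to the library total after TMM scaling, a factor that sets the bulk of the genes level between libraries. Differences are log2 fold changes of females over males from edgeR's quasi-likelihood test on all 36 embryos with queen as a term, and p-values are Benjamini-Hochberg adjusted over the 9575 genes. Calls needed an adjusted p under 0.05 and a log2 fold change over 1 in size. Because so many genes differed between the sexes after 24 h, the scale matters. The median gene stood 0.18 above 0 on the log2 scale at 48 h and 0.41 above 0 at 72 h under TMM, and 0.95 and 2.84 above 0 on the deposited RPKM, where 74.6% of the calls at 48 h and 91.6% of those at 72 h were higher in females. For the 5 genes, the sex differences at 48 and 72 h are therefore also given relative to the median gene, as a range over 5 scalings. Subtracting the median of each scaling cancels most of a change of library factor. The 5 scalings then agree largely by construction, and their agreement is not separate support for a difference.

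At 24 h none of the 5 genes was called between the sexes, and the whole table held 9 calls among 9575 genes (0.0940%). The largest difference of the 5 was that of mle, at −0.47 ± 0.13 (SE) on the log2 scale with an adjusted p of 0.0721, and 3 of the 5 had an unadjusted p over 0.4. At 48 h, 2 of the 5 were called, mle and LOC725679, both higher in females, against a background of 61.2% of all genes called and 33.7% called higher. At 72 h, 2 of the 5 were called, mle and Snf, both higher in females, against 65.0% called and 38.2% called higher. The share of the 5 that was called thus lay below the background for calls in either direction and near it for calls in that direction. The median difference of the 5 was 0.64 on the log2 scale at 48 h and 0.84 at 72 h, beside 0.18 and 0.41 over all genes. The share of all genes without overlap between the sexes was not counted, so non-overlap below has no background beside it.

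**Figure D1:**
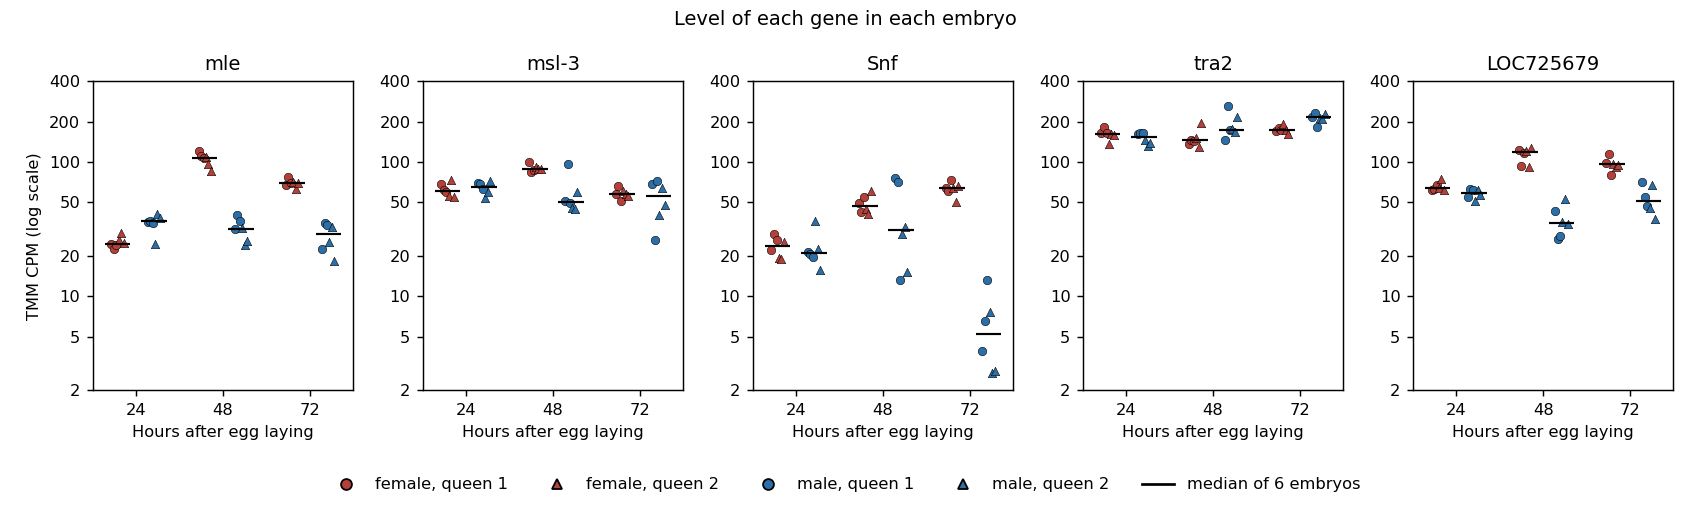
TMM CPM (vertical axis, log scale) of the 5 genes in each of 36 embryos by hours after egg laying (horizontal axis), with females in red, males in blue, circles for queen 1, triangles for queen 2 and lines at the median of 6 embryos. The sexes separate for mle at 48 and 72 h, for LOC725679 at 48 and 72 h and for Snf at 72 h, and overlap at 24 h for all 5 genes. The share of all genes that separate in this way was not counted.

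The helicase gene mle rose in females between 24 and 48 h and was not called in males over time, where it was called lower on the RPKM scale, at −1.01 from 24 to 48 h and −1.53 from 48 to 72 h on the log2 scale. In 24 h females it stood at 22.6 CPM in the lowest embryo, 24.7 at the median and 29.5 in the highest, and in 24 h males at 24.5, 36.4 and 40.9. The ranges overlapped, although 5 of the 6 male embryos lay above every female, and the male of queen 2 numbered 8 lay apart below the other males. In 48 h females mle stood at 85.3, 107.5 and 120.9 CPM in the lowest, median and highest embryo, and in 48 h males at 23.99, 31.99 and 40.3. Every female lay above every male, and the difference was 3.30-fold (log2 1.72 ± 0.13 SE, edgeR adjusted p = 3.42e-15). In 72 h females mle stood at 63.3, 69.6 and 77.7 CPM, and in 72 h males at 18.3, 29.02 and 35.2. The groups again did not overlap, and females were 2.48-fold higher (log2 1.31 ± 0.15 SE, edgeR adjusted p = 2.32e-10).

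Over time, mle rose 4.11-fold from 24 to 48 h in females (edgeR adjusted p = 1.14e-17), where 58.8% of all genes were called and 32.4% were called higher. From 48 to 72 h in females its log2 change was −0.58 ± 0.13 (SE), which did not reach the threshold of size, and 34.7% of all genes were called. In males the log2 changes were −0.16 from 24 to 48 h and −0.17 from 48 to 72 h, with adjusted p of 0.335 and 0.371. The sexes parted in their change from 24 to 48 h by 2.20 ± 0.18 (SE) on the log2 scale (interaction term of the edgeR fit, adjusted p = 9.52e-14), where 55.8% of all genes were called and 29.3% were called higher. Both queens gave the sex difference, at 1.65 and 1.83 for 48 h and at 1.21 and 1.42 for 72 h on the log2 scale. Relative to the median gene the difference was 1.54 to 1.56 at 48 h and 0.90 to 0.98 at 72 h over the 5 scalings.

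The chromodomain gene msl-3 differed less and was not called in any comparison of the TMM-scaled counts, while on the RPKM scale it was called higher in females at 48 h (1.503 on the log2 scale) and 72 h (2.79). On that scale it was also called lower over time in males, at −1.08 from 24 to 48 h and −1.56 from 48 to 72 h, and the interaction from 24 to 48 h was called at 1.47. With total counts the calls between the sexes, at 1.24 and 1.40, and the interaction, at 1.25, were made as well. It stood at 55.4, 61.0 and 74.0 CPM in the lowest, median and highest female embryo at 24 h, and at 53.9, 65.6 and 71.9 in males. At 48 h the females stood at 83.8, 88.8 and 99.5 CPM and the males at 44.8, 50.2 and 96.3. The overlap came from 1 embryo, the male of queen 1 numbered 6, at 96.3 CPM while the other 5 males stood at or below 59.8. Its library differed more widely, with the most counts of the 48 h males (7572141). The listed genes held 67.0% of its RPKM total, against 46.1% to 54.7% in the other 48 h males. It was also the highest 48 h male for mle, at 40.3 CPM, and for tra2, at 260.8 CPM. The log2 difference at 48 h was 0.64 ± 0.16 (SE, edgeR adjusted p = 0.000364), and it lay between 0.58 and 0.84 as each embryo was left out. Relative to the median gene it was 0.45 to 0.55. At 72 h females stood at 51.0, 58.0 and 66.0 CPM and males at 26.2, 55.8 and 72.1, so that the males enclosed the females. The log2 difference was 0.16 ± 0.17 (SE) and was positive under all 5 scalings, while relative to the median gene it was −0.26 to −0.05.

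**Figure D2:**
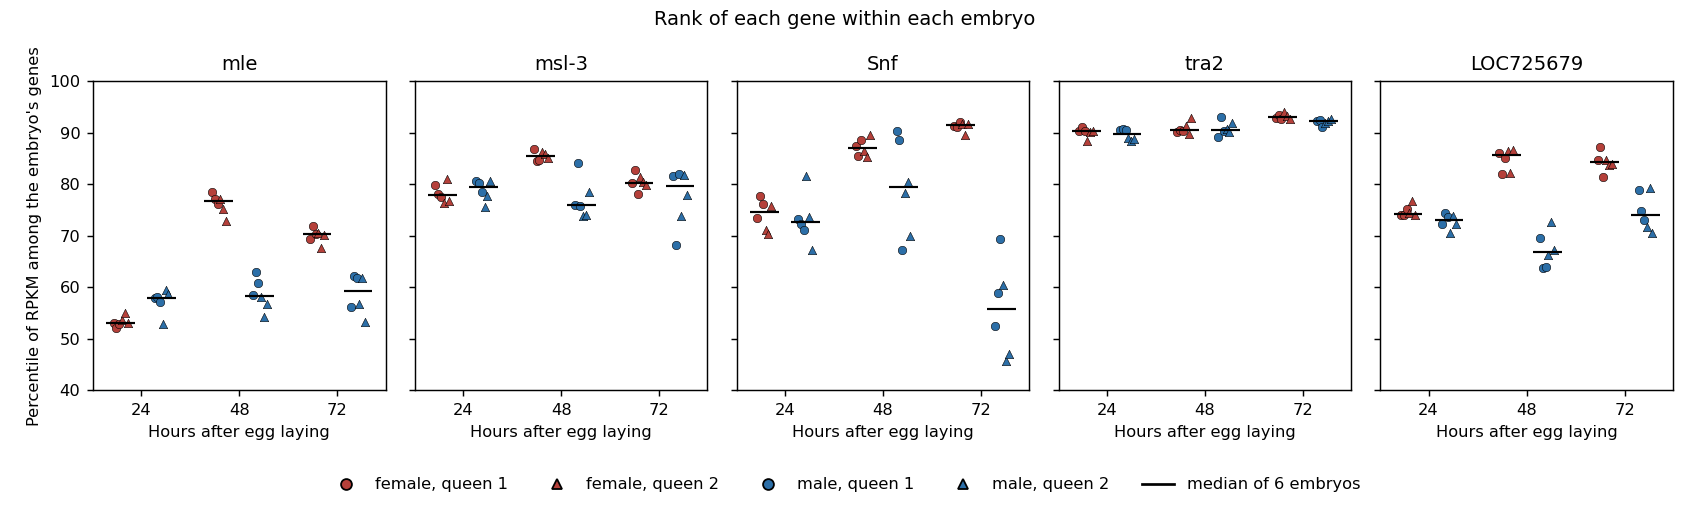
Percentile of the RPKM of each gene among all genes in the tables within the same embryo (vertical axis) by hours after egg laying, with females in red, males in blue, circles for queen 1, triangles for queen 2 and lines at the median of 6 embryos. A rank does not depend on the library total, and it sets tra2 above 88 in every embryo and Snf between 45.7 and 69.4 in 72 h males.

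The ratio of mle to msl-3, taken within each embryo as reads per kb of exon, does not depend on the library scale. Its median was 0.195 in 24 h females and 0.260 in 24 h males. The log2 difference of females over males was −0.42, with means of −2.35 ± 0.16 and −1.93 ± 0.19 (SD, n = 6 each, exact permutation test, two-sided, p = 0.00433, adjusted over 9 ratio tests 0.00779). At 48 h females had a median of 0.579 and males of 0.280, and the log2 ratio was higher in females by 1.04 with no overlap (exact permutation p = 0.00216, adjusted 0.00487), the smallest p that 6 against 6 allows. At 72 h the medians were 0.569 and 0.239 and the log2 ratio was higher in females by 1.12, with 1 male embryo inside the female range (exact permutation p = 0.013, adjusted 0.0195). The mle to msl-3 ratio thus stood on opposite sides between the sexes at 24 h and at the later times.

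LOC725679, the relative of the fly splicing regulator Sxl, moved apart between the sexes at 48 h. At 24 h it stood at 61.9, 63.6 and 75.0 CPM in the lowest, median and highest female and at 51.6, 59.2 and 63.3 in males, with overlap. By 48 h the females stood at 91.2, 118.9 and 127.5 CPM and the males at 26.7, 35.1 and 52.8. No male reached the lowest female, and females were 3.04-fold higher (log2 1.61 ± 0.14 SE, edgeR adjusted p = 2.56e-13). At 72 h the females stood at 79.9, 96.1 and 115.7 CPM and the males at 37.9, 51.0 and 71.1. The groups did not overlap, and the log2 difference of 0.84 ± 0.15 (SE, edgeR adjusted p = 3.73e-06) missed the threshold of size. It was called with total counts, at 2.08, and on the RPKM scale, at 3.43. Relative to the median gene the sex difference was 1.42 to 1.47 at 48 h and 0.42 to 0.58 at 72 h.

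The time course of LOC725679 ran in opposite directions in the sexes from 24 to 48 h, and neither change alone reached the threshold of size in the TMM-scaled counts. With total counts both did, at 1.001 in females and −1.01 in males, and on the RPKM scale the male change did, at −1.56. With TMM the log2 change was 0.77 ± 0.14 (SE) in females and −0.67 ± 0.14 (SE) in males, with adjusted p of 2.42e-06 and 0.000135, and 21.3% of all genes were called in the male comparison. The difference between these changes was called at 1.44 ± 0.20 (SE) on the log2 scale (interaction term of the edgeR fit, adjusted p = 2.52e-08). From 48 to 72 h the log2 changes were −0.22 in females and 0.55 in males, and the interaction was −0.77 ± 0.21 (SE) and was not called. These 3 values changed sign on the RPKM scale. Within queens the sex difference at 48 h was 1.79 and 1.46 on the log2 scale.

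The splicing factor gene tra2 held the highest median level of the 5 genes per length in every group of sex and time and was not called in any comparison of the TMM-scaled counts. At 24 h it stood at 136.5, 162.4 and 181.3 CPM in the lowest, median and highest female and at 131.1, 153.3 and 165.6 in males. The 48 h females stood at 130.2, 144.6 and 196.3 CPM and the males at 146.7, 174.2 and 260.8. At 72 h the females stood at 162.3, 174.0 and 192.8 CPM and the males at 182.5, 216.2 and 233.0. The sexes overlapped at every time. The log2 difference of females over males was 0.09 at 24 h, −0.33 ± 0.12 (SE) at 48 h and −0.29 ± 0.12 (SE) at 72 h, with edgeR adjusted p of 0.760, 0.00863 and 0.0257.

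The sign of the tra2 difference turned with the scale. Without composition correction it was 0.26 at 48 h and 0.95 at 72 h, and on the deposited RPKM 0.49 and 2.32. Relative to the median gene it was −0.52 to −0.46 at 48 h and −0.71 to −0.53 at 72 h, a range that is narrow largely by construction. The rank of tra2 within the embryo was alike in the sexes, with median percentiles of 90.4 and 90.6 at 48 h and 93.0 and 92.2 at 72 h in females and males. Read totals for tra2 pool its 13 mRNA models.

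**Figure D3:**
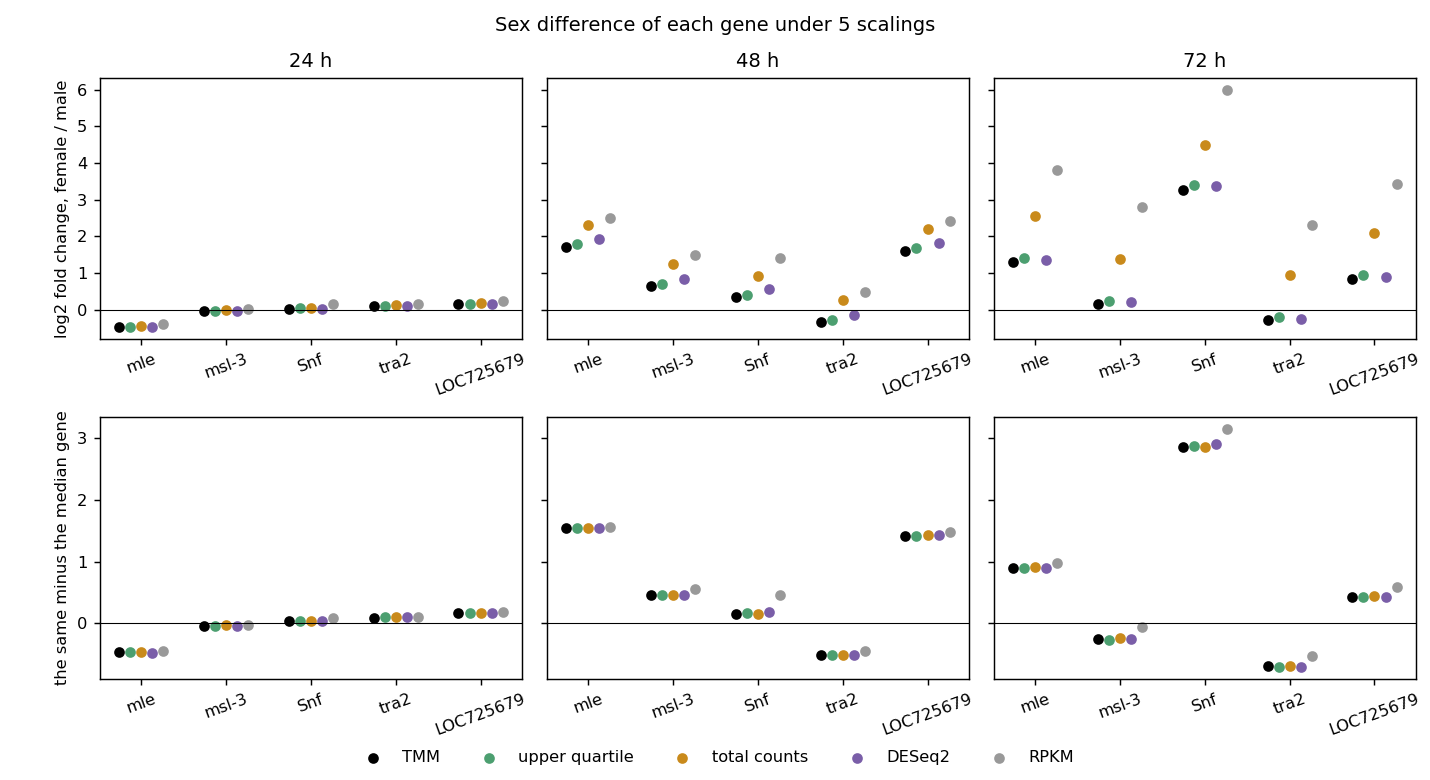
Log2 fold change of females over males for the 5 genes at 24, 48 and 72 h under TMM, upper-quartile, total-count and DESeq2 scaling and on the deposited RPKM (upper row), and the same after subtracting the median over all genes tested (lower row). The spread of the upper row at 72 h closes in the lower row, largely because the subtraction cancels the library factors. There mle lies at 0.90 to 0.98, Snf at 2.86 to 3.15 and tra2 at −0.71 to −0.53.

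The ratio of LOC725679 to tra2 joined the sexes at 24 h and parted them later. Its median was 0.321 in 24 h females and 0.303 in 24 h males, with a log2 difference of 0.07 (exact permutation p = 0.463, adjusted 0.521). At 48 h the medians were 0.598 and 0.147, so that the ratio was 3.86-fold higher in females with no overlap (exact permutation p = 0.00216, adjusted 0.00487). At 72 h the medians were 0.444 and 0.199, a 2.20-fold difference with no overlap and the same p.

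Snf, which encodes a protein of the U1 and U2 particles, rose in females from 24 to 48 h and fell in males from 48 to 72 h. At 24 h it stood at 18.96, 23.7 and 28.996 CPM in the lowest, median and highest female and at 15.7, 20.9 and 36.7 in males. The 48 h females stood at 41.3, 47.0 and 60.7 CPM and the males at 13.2, 31.0 and 75.8. The 48 h males did not form 1 group of values. In those of queen 1 Snf stood at 71.5, 75.8 and 13.2 CPM, and in those of queen 2 at 29.03, 15.2 and 33.03. The sex difference at 48 h was 0.34 ± 0.26 (SE, edgeR adjusted p = 0.217), with −0.12 in queen 1 and 0.92 in queen 2 on the log2 scale. It was 0.93 with total counts, which was not called, and 1.41 on the RPKM scale, which was called, and relative to the median gene it was 0.15 to 0.46.

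At 72 h Snf stood at 50.8, 64.4 and 73.5 CPM in females and at 2.72, 5.24 and 13.4 in males. The male values rest on 2, 2, 4, 8, 10 and 15 reads, so each of them is imprecise, while the females had 514 to 679 reads. No male came near the lowest female, and females were 9.67-fold higher (log2 3.27 ± 0.37 SE, edgeR adjusted p = 1.74e-10), at 3.03 in queen 1 and 3.59 in queen 2. Relative to the median gene the difference was 2.86 to 3.15. Snf ranked at a median percentile of 91.5 in 72 h females and 55.7 in 72 h males.

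From 24 to 48 h Snf rose 2.10-fold in females (edgeR adjusted p = 0.000199), a call that was lost on the RPKM scale, at 0.92 on the log2 scale, in queen 1 alone, at 0.95, and when the 48 h female of queen 2 numbered 30 was left out, at 0.96. In males the log2 change from 24 to 48 h was 0.77 ± 0.26 (SE, edgeR adjusted p = 0.0132), which missed the threshold of size, with 1.38 in queen 1, which was called, 0.0451 in queen 2 and −0.34 on the RPKM scale. The interaction term from 24 to 48 h was 0.30 ± 0.36 (SE, adjusted p = 0.464). From 48 to 72 h Snf fell 5.93-fold in males (edgeR adjusted p = 4.75e-07), where 28.4% of all genes were called and 11.6% were called lower. Between the sexes, the change from 48 to 72 h of Snf was apart by 2.93 ± 0.46 (SE) on the log2 scale (interaction term of the edgeR fit, adjusted p = 8.28e-07), where 43.8% of all genes were called and 23.3% were called higher. This interaction term was not called for the other 4 genes in the TMM-scaled counts. On the RPKM scale it was 4.58 for Snf, 1.82 for tra2, 1.31 for mle, 1.29 for msl-3 and 1.00 for LOC725679. The median gene stood at 1.73 there.

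The ratio of LOC725679 to Snf followed. Its median was 0.983 in 24 h females and 1.07 in 24 h males. At 48 h the medians were 0.808 and 0.515, and the log2 ratio was higher in females by 1.02 (exact permutation p = 0.026, adjusted 0.0334), which leaving out any 1 of 4 female embryos moved to a p of 0.0541 to 0.0736. At 72 h the medians turned to 0.560 in females and 3.43 in males, and the log2 difference of females over males was −2.58 with no overlap (exact permutation p = 0.00216, adjusted 0.00487).

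**Figure D4:**
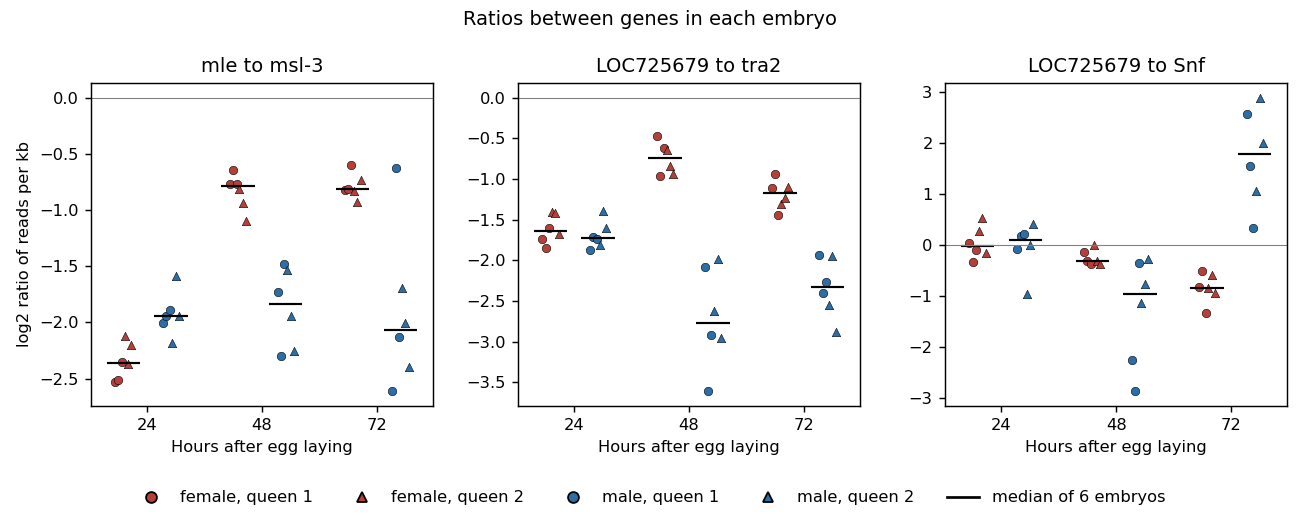
Log2 ratio of reads per kb of exon between pairs of the 5 genes in each embryo (vertical axis) by hours after egg laying, with females in red, males in blue, circles for queen 1, triangles for queen 2 and lines at the median of 6 embryos. The sexes do not overlap for mle to msl-3 at 48 h, for LOC725679 to tra2 at 48 and 72 h, or for LOC725679 to Snf at 72 h.

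Per length, on the RPKM scale, the order of the 5 genes differed between 24 and 72 h and, at 72 h, between the sexes. In 24 h females the median level was 59.8 RPKM for tra2, 24.1 for msl-3, 18.8 for LOC725679, 18.1 for Snf and 4.58 for mle. The ranges of msl-3, LOC725679 and Snf overlapped, while tra2 and mle stood apart. Ranges leave out that the genes were read in the same embryos, and within every 24 h female msl-3 lay above LOC725679. The order within embryos was not tested. In 72 h females the medians were 74.3 RPKM for tra2, 61.7 for Snf, 31.6 for LOC725679, 24.99 for msl-3 and 15.02 for mle, and only LOC725679 and msl-3 overlapped. In 72 h males they were 15.5 RPKM for tra2, 3.46 for msl-3, 3.00 for LOC725679, 0.995 for mle and 0.940 for Snf, where msl-3 overlapped LOC725679, mle overlapped Snf, and the highest Snf value (2.22) lay above the lowest of LOC725679 (1.60).

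The spread between embryos was wider in males after 24 h. The CV of Snf was 69.4% in 48 h males and 65.6% in 72 h males but 15.8% and 11.8% in females of those times. That of msl-3 was 34.02% in 72 h males and 8.62% in 72 h females. Over genes at 10 CPM or more, the median CV was 24.99% in 48 h males and 27.03% in 72 h males, against 14.5% and 15.3% in females. Snf in 72 h males lay below that level, at a mean of 6.18 CPM on 2 to 15 reads. Male libraries were shallower at 72 h, and the part of read depth in these spreads was not tested. No gene of the 5 was called between queens, with log2 differences from −0.24 to 0.02, and no gene in the table was either by edgeR (0 of 9575, 0%), with 1736 at an unadjusted p under 0.05 and 2 called by DESeq2.

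Across the 12 conditions of queen, sex and time, the genes whose log2 CPM ran most like mle were LOC100578879, an uncharacterized gene (Pearson r = 0.98), LOC412642 (0.98) and LOC412948 (0.97), and 355 of 6546 genes had an r over 0.9 with mle. Those most like msl-3 were LOC552686 (0.97), crn (0.97) and LOC411450 (0.95), and those most like Snf were LOC551740 (0.97), Ndufa8 (0.97) and mRpS6 (0.97). Those most like LOC725679 were LOC100576169 (0.97), fra (0.97) and LOC413440 (0.97). For tra2 the highest values were lower, for LOC552251 (0.93), LOC100576852 (0.92) and Atp5a1 (0.92), and 7 genes exceeded 0.9. Among the 5 genes themselves, r was 0.79 between mle and LOC725679 and 0.72 between mle and msl-3, and tra2 had a negative r with each of the others, from −0.70 to −0.42. These points share libraries and the time course, and the values describe likeness only.

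A list of 30 genes gave 29 that could be tested. They were matched by annotation name and product text to factors that work beside these 5 in flies or bees. Some are relatives by name only, and a role of each beside the 5 was not tested. At 24 h none was called (0 by edgeR). At 48 h 11 were higher and 6 lower in females, with a median of 0.61 on the log2 scale, beside 61.2% of all genes called, 33.7% called higher and a median of 0.18. At 72 h 7 were higher and 7 lower, with a median of 0.13, beside 65.0%, 38.2% and 0.41 over all genes. In the transformer hierarchy, 5 were higher and 1 lower of 7 at 48 h. Among Sxl and m6A splicing partners, 3 were higher and 1 lower of 9. Of 4 genes matched by the names of the U1 and U2 particles, 2 were higher. The annotation describes 1 of these 4 as a relative of a U2 auxiliary factor subunit, not a protein of the particles. Of 6 relatives of the fly genes that count X chromosomes, 1 was higher and 3 lower. In the MSL group, 1 was lower of 3.

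In the MSL group, JIL-1, a histone kinase that joins the MSL complex on the fly X chromosome, was called lower in females. It stood at 376.4, 477.7 and 552.1 CPM in the lowest, median and highest 48 h female and at 1317, 1452 and 1745 in 48 h males. At 72 h the females stood at 30.7, 35.9 and 45.4 CPM and the males at 3188, 4353 and 7551. The groups did not overlap at either time, and the log2 difference was −1.65 ± 0.15 (SE) at 48 h and −7.05 ± 0.19 (SE) at 72 h (edgeR adjusted p = 1.92e-13 and 1.83e-30). On the RPKM scale the 72 h difference was −4.37, and at 48 h it was −0.83, which was not called.

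The other two MSL genes, named here after their values were seen, were not called. For mof, the acetyltransferase gene, the log2 difference was −0.58 at 48 h and −0.85 at 72 h and turned to 0.23 and 1.84 on the RPKM scale. For LOC726108, the msl-2 homolog, it was 0.76 at 48 h and −0.09 at 72 h and turned to 2.49 at 72 h on the RPKM scale.

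**Figure D5:**
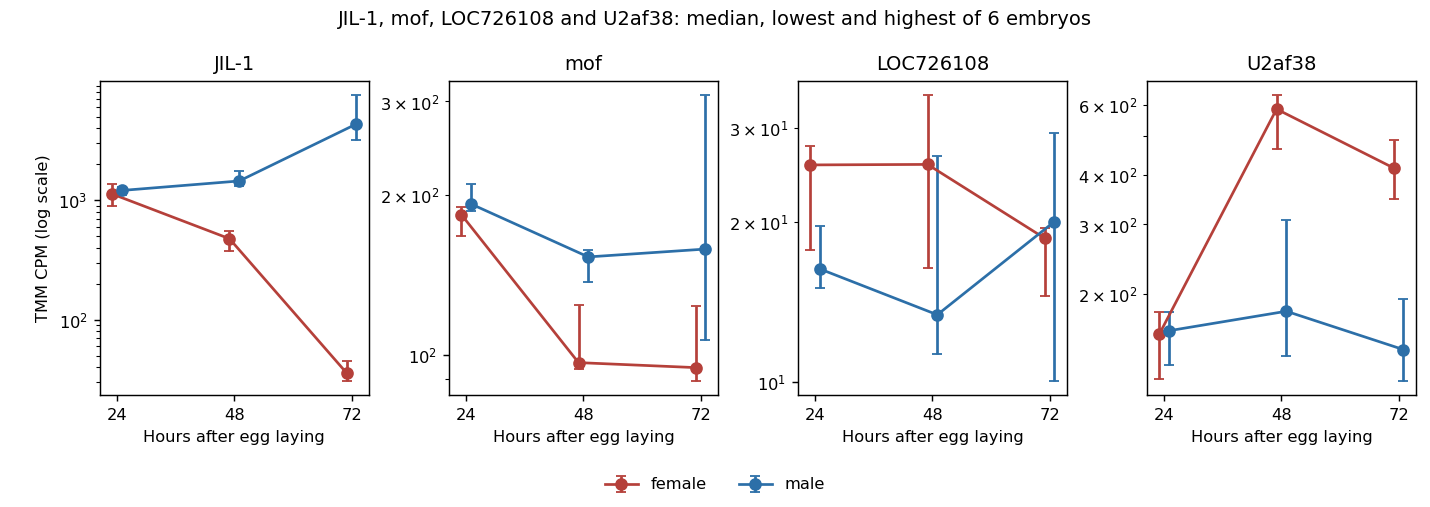
TMM CPM (vertical axes, log scale, a separate range for each gene) of JIL-1, mof, LOC726108 and U2af38 by hours after egg laying, with points at the median of 6 embryos and bars from the lowest to the highest embryo, females in red and males in blue. JIL-1 lies far higher in males at 72 h, and U2af38 lies higher in females at 48 and 72 h.

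In the transformer hierarchy, Csd and Fem, the sex-determining gene of the bee and its downstream partner, were near 0 in both sexes at 24 h. Csd had 6 to 23 reads in 24 h females and 12 to 24 in 24 h males. At 48 h it had 1127 to 2123 reads in females and 1 to 12 in males, and at 72 h 306 to 3399 in females and 0 to 4 in males. Fem had 126 to 173 reads in 48 h females and 1 to 12 in 48 h males, and 176 to 702 in 72 h females and 0 to 2 in 72 h males. Both were called higher in females at 48 h and 72 h (edgeR adjusted p = 7.09e-18 and 1.22e-12 for Csd, 6.21e-15 and 6.66e-14 for Fem), and no male overlapped a female. Csd and Fem are near copies of each other, and reads that fit both were removed, so their split is uncertain. LOC409455, a relative of doublesex, was called higher at both times on few reads, 12 to 38 in 48 h females and 0 to 6 in 48 h males. LOC727299, a fruitless-like gene, was called lower at both times, at −1.20 and −2.16 on the log2 scale, but turned to 0.45 at 72 h on the RPKM scale. Dsx (doublesex) and Fru (fruitless) themselves are named here after their values were seen. Both were called higher in females at 48 h, at 2.20 and 1.78 (edgeR adjusted p = 1.64e-08 and 4.76e-13). At 72 h they stood at 0.80 and −0.10 and were not called.

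Of the 2 subunits of U2AF, which Sxl displaces from the transformer RNA of flies, U2af38 was called higher in females, at 1.47 and 1.44 on the log2 scale for 48 and 72 h (edgeR adjusted p = 5.07e-12 and 2.27e-11). U2af50 was called lower, at −1.17 and −1.11, and turned to 1.48 at 72 h on the RPKM scale. U2A, a U2 protein that pairs with the product of Snf in flies, was called higher at 1.04 and 2.07. Among relatives of the fly genes that count X chromosomes, the corepressor genes gro and LOC408894 were called lower in females at −1.37 and −3.53 and at −2.12 and −3.06, and LOC410535, a runt relative, at −2.12 and −6.44. LOC552308 (gene8753), which the study treats as a second Sxl copy and the annotation names a zinc finger and RNA-binding motif protein, was added after its values were seen. It stood at 3.79 to 6.47 CPM in 48 h females and 45.8 to 56.7 in 48 h males and was called lower in females at −3.23 and −1.60, with the 72 h value turning to 1.02 on the RPKM scale. The named genes of the list, except Dsx and Fru, and LOC552308 were also compared at 48 and 72 h under other scalings and within each queen. Of these results, 110 kept direction and call status, 12 reversed, 15 lost their call and 3 gained one. The lost calls are not all given one by one here.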

How the data were processed

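RNA of 36 single embryos was amplified and sequenced. Per the study's methods, the authors trimmed adaptors and the T7 promoter, aligned reads to Amel_4.5 with TopHat2, kept uniquely aligned reads and deposited read counts per gene. The authors also deposited RPKM, counts divided by gene length and a library total. Per the file headers the annotation is a deposited GFF3 (other values: gene positions). The counting tool and its use of strand are not given in the sources used here. In every embryo, genes above 20 RPKM gave one library total within 1%, so RPKM used the merged exon length.

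Counts were tested with edgeR 4.0.16 in R 4.3.3 (TMM, filterByExpr, quasi-likelihood test, 6 sex and time groups plus queen). The filter needed a CPM equal to 10 counts at the median depth in at least 6 embryos, the size of a group, and 15 counts in all. The test was run on simulated counts with few changed genes, as many up as down, and the same spread for all genes. That check did not cover the broad changes or the unequal spread of these data. RPKM were tested with limma 3.58.1 on log2(RPKM + 0.1), and DESeq2 1.42.0 was an alternative. Ratios used counts plus 0.5 per kb and exact permutation tests over 6 against 6 embryos. Depth ran from 1195774 to 12808580 counts per embryo; no 2 embryos had identical counts. Reads are not independent molecules.

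The 5 genes, the list of 30 and the tests were chosen with earlier results of these data known. A listed gene was named if it was called in 2 or more of the 3 sex comparisons. Listed genes outside this rule are marked as named after their values were seen. For each of the 5 genes the 3 most alike at a mean of 10 CPM or more were named. A pair of genes that matched the list by letters alone (a katanin and an inhibitor of STAT) were left out. Same-numbered embryos of different groups were not paired: the 6 correlations of their deviations ran from −0.198 to 0.101. No sequences are printed because the genome was not used here.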

Additional observations from a re-analysis of the deposited data

Results flagged for a closer look

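In 30 groups of 6 embryos (5 genes, 6 groups of sex and time), 4 values, from 3 embryos, lay far from the others of their group by Dixon's criterion, which chance meets in about 1 group in 20. The 24 h male of queen 2 numbered 8 had mle at 24.5 CPM, where the other 5 males had 34.99 to 40.9, and Snf at 36.7 CPM, where the others had 15.7 to 22.6. The 48 h male of queen 1 numbered 6 had msl-3 at 96.3 CPM, where the others had 44.8 to 59.8. The 48 h female of queen 2 numbered 30 had tra2 at 196.3 CPM, where the others had 130.2 to 151.5. Leaving out any of these embryos changed no call on the 5 genes between the sexes, while leaving out the female numbered 30 ended the call of Snf from 24 to 48 h in females.

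Changes over time that differed between the sexes by the interaction term of the edgeR fit were called for 3 of the 5 genes. Of all genes, 55.8% were called for this term from 24 to 48 h, beside 2 of the 5, and 43.8% from 48 to 72 h, beside 1 of the 5. From 24 to 48 h the change of mle was higher in females by 2.20 on the log2 scale, and that of LOC725679 by 1.44. From 48 to 72 h the change of Snf was higher in females by 2.93.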

How the results depend on the processing

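Values are log2 fold changes of females over males, of the later over the earlier time, or of the first change over the second. The calls of mle at 48 h and 72 h, of LOC725679 at 48 h and of Snf at 72 h between the sexes kept their direction and their call under all alternatives run. The other scalings could hardly have removed them, because each set the median gene further above 0 than TMM. It stood at 0.25 to 0.95 at 48 h and 0.46 to 2.84 at 72 h, against 0.18 and 0.41. Relative to the median gene, mle at 72 h was 0.90 to 0.98, under the threshold of size. In males at 72 h, 1195774 to 2008560 counts per embryo limit low genes such as Snf most. On the deposited RPKM (with 0.1, then 1 added), msl-3 between the sexes gave 0.0326 and 0.0315 at 24 h, 1.503 and 1.42 at 48 h and 2.79 and 2.52 at 72 h, Snf gave 1.41 and 1.33 at 48 h, tra2 gave 0.49 and 0.48 at 48 h and 2.32 and 2.25 at 72 h, and LOC725679 gave 3.43 and 3.08 at 72 h. In males from 24 to 48 h Snf gave −0.34 and −0.30 and tra2 −0.57 and −0.56, and from 48 to 72 h tra2 gave −1.23 and −1.18 and LOC725679 −0.85 and −0.69. In females from 48 to 72 h LOC725679 gave 0.15 and 0.14, and between queens −0.11 and −0.0926. The sex by time differences from 48 to 72 h were 1.31 and 0.80 for mle, 1.29 and 1.09 for msl-3 and 1.00 and 0.83 for LOC725679, and that from 24 to 48 h was 0.33 and 0.32 for tra2. With total counts and no composition correction, msl-3 gave 1.24 at 48 h and 1.40 at 72 h, tra2 0.26 and 0.95, and LOC725679 2.08 at 72 h between the sexes, tra2 gave 0.13 in females and −0.0122 in males from 24 to 48 h and −0.21 in males from 48 to 72 h, LOC725679 gave 0.0487 in females from 48 to 72 h, and the sex by time differences were 0.22 for mle and 0.16 for msl-3 from 48 to 72 h and 0.14 for tra2 from 24 to 48 h. With DESeq2, mle gave 0.017 and msl-3 0.049 in males from 48 to 72 h, and tra2 0.13 in females from 24 to 48 h and −0.11 for sex by time from 48 to 72 h. In queen 1 alone, mle gave 0.00385 in males from 24 to 48 h, Snf −0.12 between the sexes at 48 h and −0.44 for sex by time from 24 to 48 h, and the LOC725679 to Snf ratio −0.23 at 24 h. In queen 2 alone, msl-3 gave 0.000769 and Snf −0.23 between the sexes at 24 h, and tra2 0.067 in females from 24 to 48 h and −0.0802 for sex by time from 48 to 72 h. With 3 embryos a side within 1 queen, the ratio tests cannot go below 0.1. Between the sexes, with alternatives chosen after seeing the data, U2af50 at 72 h gave 0.14 with total counts and 1.48 on RPKM, LOC727299 at 72 h 0.45 and LOC552308 at 72 h 1.02 on RPKM, mof 0.0228 and 0.23 at 48 h and 0.39 and 1.84 at 72 h, and LOC726108 at 72 h 1.14 and 2.49, with 0.00945 under upper-quartile factors and 0.0267 in queen 2 alone. As each embryo was left out, the sex difference at 24 h ranged from −0.11 to 0.0115 for msl-3, from −0.0331 to 0.26 for Snf and from −0.10 to 0.17 for the LOC725679 to Snf ratio, that ratio ranged from 0.71 to 1.23 at 48 h, msl-3 in males from 48 to 72 h from −0.26 to 0.0548, Snf in females from 24 to 48 h from 0.96 to 1.14, tra2 for sex by time from 48 to 72 h from −0.0632 to 0.15 and LOC725679 between queens from −0.0178 to 0.0453. With a replicate block on the embryo number, which rests on the same-numbered embryos only and does not pair related embryos, Snf between the sexes at 48 h became a call at 1.58, and no other call on the 5 genes changed in the 3 comparisons where it could be fitted. The number of genes called at 24 h was 5 with upper-quartile factors, 4 with total counts and 28 with DESeq2, against 9. The cause of the other changes was not tested.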
